A study of Canis lupus familiaris with 8 samples.

Results

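The genes of 2 mitochondrial systems were examined in dog retina prepared in 2 ways: the SLC25 carriers, which move metabolites across the inner mitochondrial membrane, and the TOMM and TIMM genes, which encode most of the channels and chaperones that import proteins into the organelle. Members were taken by symbol, as every gene named SLC25A, TIMM or TOMM with a number (and the endings A, B or L for import genes). The symbol rule used no measured values, but it was set with earlier results of these data known. It gave 56 of the 12824 genes of the deposited table, namely 37 carriers, 11 TIMM genes and 8 TOMM genes. Retina came from male wild-type Beagles 31 weeks of age, with 4 libraries for each preparation. Fresh-frozen tissue came from right eyes, which were embedded unfixed. PFA-fixed tissue came from left eyes, which were fixed at 4% paraformaldehyde (PFA, a crosslinking fixative; 3 h), then more weakly (2%, 24 h, 4 °C), soaked in sucrose (15% then 30%, each 24 h) and frozen. Fresh-frozen RNA was isolated with the RNeasy Plus Micro kit, and fixed RNA with the RNeasy FFPE kit, proteinase K treatment (18 h, 56 °C) and repeated DNA removal. Fixation, side of the eye and extraction therefore changed together and cannot be told apart. The labels do not say which libraries came from the same dog or whether quadrants were pooled, and p-values therefore reflect only how far these 8 libraries spread.

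Most mitochondrial proteins are made in the cytosol and enter through the TOM complex of the outer membrane. From there, TIM23 and its motor draw proteins with a presequence into the matrix, while the small TIM chaperones of the intermembrane space hand hydrophobic proteins, the SLC25 carriers among them, to the TIM22 translocase of the inner membrane. The carriers exchange ADP for ATP and carry phosphate, amino acids, carboxylic acids, cofactors and iron. Photoreceptors, with their dense mitochondria in the inner segment, are among the heaviest users of ATP in the body.

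Values are log2 CPM, the log2 of the reads of a gene relative to the scaled size of its library. Linear values summed to 947376 to 975641 CPM in fresh-frozen and 1021459 to 1058314 CPM in fixed libraries, so a scaling factor is already in them. A change is the mean of fixed minus the mean of fresh-frozen libraries, positive where fixed tissue was higher. The rod photoreceptor list was measured in full (22 of 22 genes, of which 9 rose and 4 fell at the threshold given below), at a summed level of 43200 to 50200 CPM in fresh-frozen and 47900 to 53500 CPM in fixed libraries. Estimated effective depth, which includes that scaling, was 21590000 to 22700000 reads in fresh-frozen and 11040000 to 15350000 reads in fixed libraries. Markers of tissue around the neural retina were lower in fixed libraries. All 11 sclera and fibroblast genes fell (summed level 7260 to 10300 CPM in fresh-frozen and 190 to 215 CPM in fixed libraries, with DPT and KERA at the lowest value of the table in at least 1 fixed library). All 10 pigment epithelium genes fell (2580 to 3750 against 118 to 187 CPM, none at the lowest value), as did 8 of 8 measured pericyte and smooth muscle genes (1820 to 2590 against 448 to 567 CPM, none at the lowest value) and 9 of 10 endothelial genes (1000 to 1360 against 514 to 635 CPM, none at the lowest value). Of 11 microglia and macrophage genes 9 fell (123 to 165 against 19.2 to 27.6 CPM, with TMEM119 at the lowest value in at least 1 fixed library), and of 15 Müller glia genes 9 fell (7100 to 9690 against 3920 to 5200 CPM, none at the lowest value). The lists differed between the same groups as the members, and their part in the changes below was not tested. In whole tissue, fewer cells of a type and less RNA per cell cannot be told apart.

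Carriers and import genes each moved in both directions. Of the 37 carriers, 15 rose and 13 fell at an adjusted p under 0.05 (limma, Benjamini-Hochberg over 12824 genes), and of the 19 import genes, 6 rose and 4 fell. Over all genes, 68.7% were called, 33.9% higher and 34.7% lower. The called share was 75.7% of carriers and 52.6% of import genes, on either side of this background. The median change was -0.04 for carriers and -0.06 for import genes, against -0.02 for all genes. The middle of the size of change, whatever its sign, was 0.53 for carriers, 0.39 for import genes and 0.51 for all genes. Expression in the groups did not overlap in 26 of 37 carriers and 11 of 19 import genes, where 62.9% of all genes showed no overlap. Of 11 TIMM genes 6 rose and 1 fell, with a median change of 0.34, and of 8 TOMM genes none rose and 3 fell, with a median of -0.10. The difference between the 2 name families was not tested.

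The direction counts depended on the scaling between libraries. When libraries were scaled to equal mean levels of the rod list ("rod scaling" below), which moved the median change of all genes to -0.23, 9 carriers rose and 15 fell, and 3 import genes rose and 8 fell. The share of rising genes among all calls was then 34.2%, against 49.4% with the deposited scaling. TIMM genes then numbered 3 higher and 1 lower (median 0.13) and TOMM genes none higher and 7 lower (median -0.31). After quantile normalization, 8 TIMM genes rose and none fell, and 1 TOMM gene rose and 3 fell. The share of rising genes among all calls was 54.9% with that scaling. Against a minimum change of 1.5-fold, which 26.1% of all genes passed, 4 carriers were higher and 5 lower, and 2 import genes were higher and 1 lower.

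**Figure D1:**
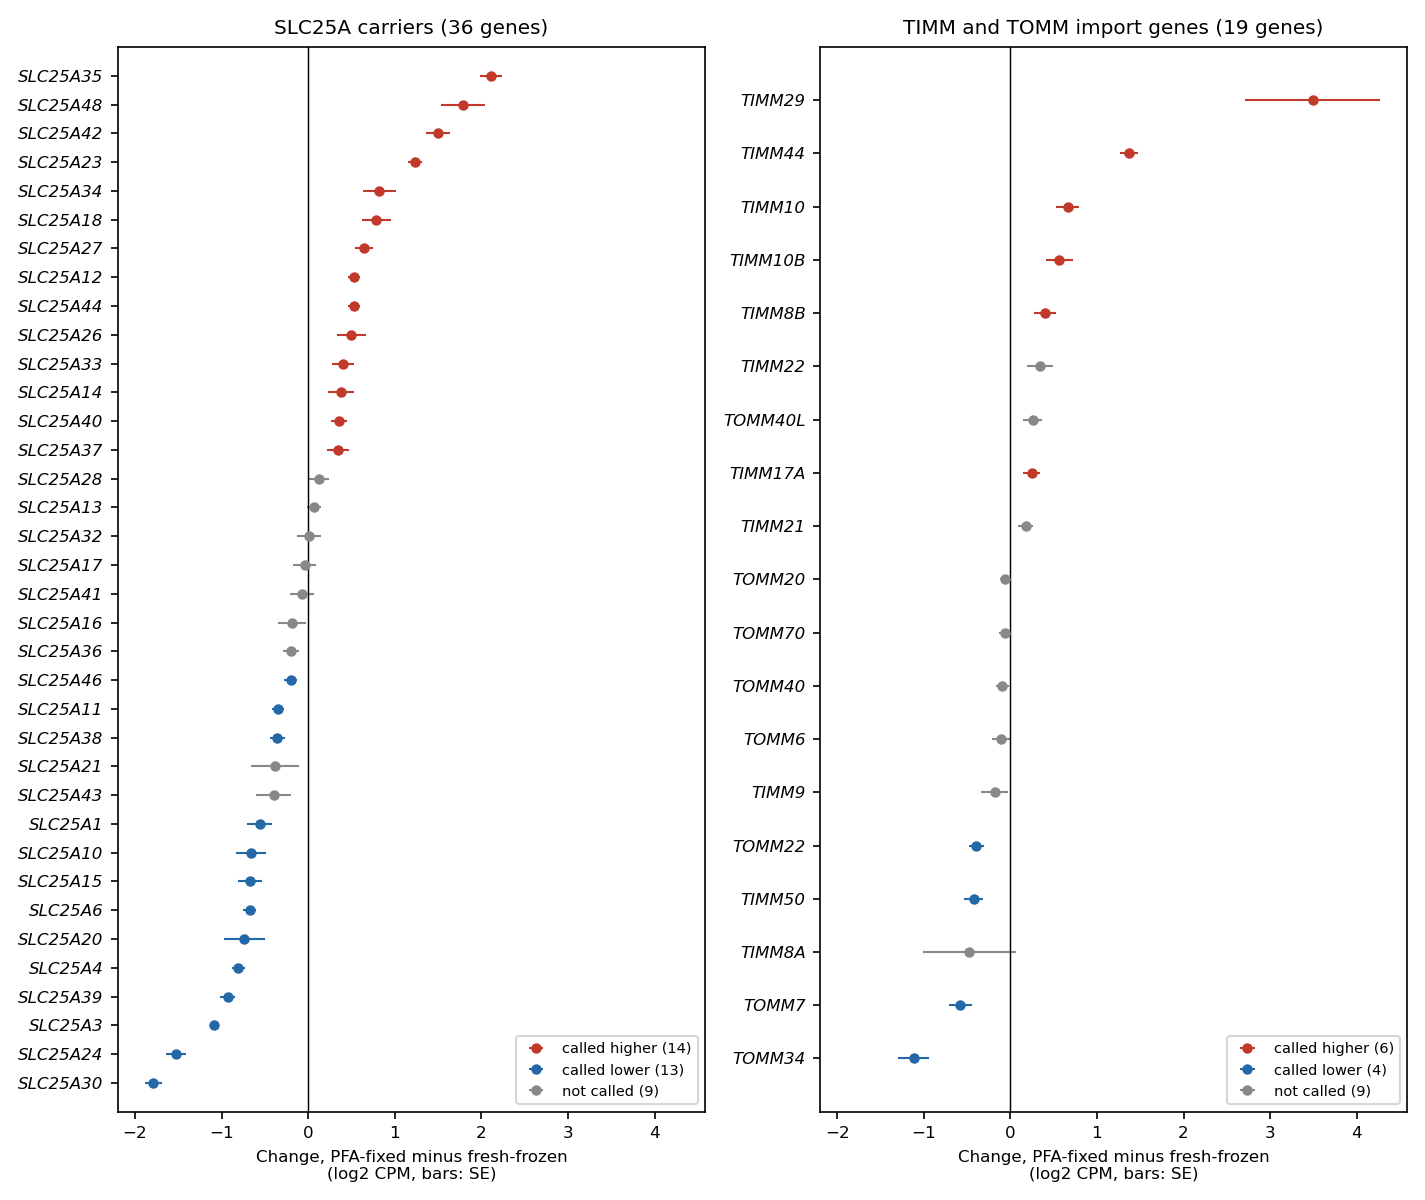
Change of 36 of the 37 carriers (left) and 19 import genes (right), PFA-fixed minus fresh-frozen in log2 CPM, with bars for the SE from limma and colours for the call. Carriers spread from -1.79 to 2.11 with calls at both ends, and TIMM29 at 3.49 has the widest bar of the import genes.

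**Figure D2:**
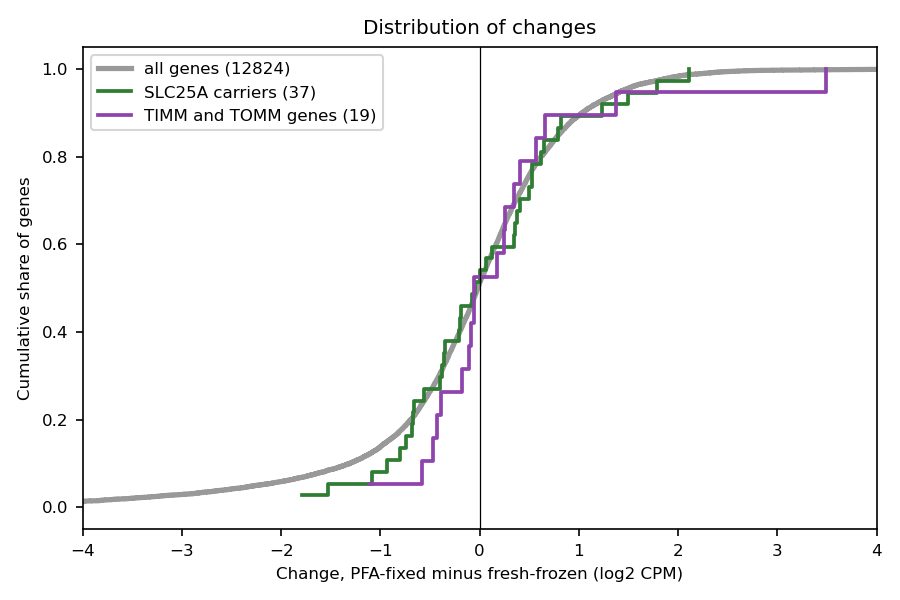
Cumulative share of genes by their change in log2 CPM for all 12824 genes, the 37 carriers and the 19 import genes, with the axis cut at 4 in each direction (187 genes lie beyond it). The 3 curves cross 0 close together, with medians of -0.02, -0.04 and -0.06, and no member reaches the far left, where the lowest member is SLC25A30 at -1.79.

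All 3 measured carriers of phosphate, ADP and ATP fell. SLC25A3 imports the phosphate used to make ATP, and SLC25A4 and SLC25A6 are ADP/ATP carriers (adenine nucleotide translocases), which exchange matrix ATP for cytosolic ADP. SLC25A3 stood at 7.60, 7.68, 7.63 and 7.56 log2 CPM in fresh-frozen replicates 1 to 4 and at 6.55, 6.49, 6.55 and 6.56 in PFA-fixed replicates 1 to 4. SLC25A4 stood at 7.09, 6.93, 7.21 and 6.97 in fresh-frozen and at 6.26, 6.28, 6.26 and 6.17 in fixed libraries. SLC25A6, the carrier with the most reads, stood at 8.47, 8.40, 8.51 and 8.23 in fresh-frozen and at 7.73, 7.73, 7.86 and 7.59 in fixed libraries. For all 3 genes every fixed library lay below every fresh-frozen library. SLC25A3 fell by 1.08 ± 0.06 (SE; limma adjusted p = 1.57e-08), SLC25A4 by 0.81 ± 0.07 (limma adjusted p = 1.36e-06) and SLC25A6 by 0.68 ± 0.08 (limma adjusted p = 1.17e-05), that is 2.12-fold, 1.75-fold and 1.60-fold. Together they took 669 ± 40.1 CPM in fresh-frozen and 380.5 ± 18.4 CPM in fixed libraries (SD, n = 4 each). The 3 falls passed under every scaling, and the 2 members listed beside them, SLC25A5 and SLC25A31, had no row under these symbols. The ADP/ATP carriers are close in sequence, so reads may have been shared among them. SLC25A4 is abundant in muscle. Of the skeletal muscle list 3 of 10 genes were measured and 1 fell (summed level 69.8 to 441 CPM in fresh-frozen and 32.1 to 34 CPM in fixed libraries, none at the lowest value). The upper value came from fresh-frozen replicate 1 alone, where CKM and MYH7 stood at 6.93 and 7.77 log2 CPM, and the other 3 fresh-frozen libraries summed to 69.8 to 71.3 CPM. Without fresh-frozen replicate 1, SLC25A4 fell by 0.79 (limma adjusted p = 7.74e-06). In fresh-frozen replicates 2 to 4, CKM stood at 3.07 to 3.87 and MYH7 at 3.45 to 3.82 log2 CPM. In fixed libraries CKM stood at 3.87 to 4.25 and MYH7 at 3.38 to 3.76, so neither was clearly lower there. DES, the gene of that list that fell, stood at 5.51 to 6.66 log2 CPM in fresh-frozen and 1.99 to 2.16 in fixed libraries. Leaving out replicate 1 does not remove that difference, and a part of muscle in the fall of SLC25A4 was not tested.

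The measured ATP-Mg/phosphate carriers, which adjust the adenine nucleotide pool of the matrix, parted, and SLC25A25, listed with them, had no row. SLC25A23, which is regulated by calcium, stood at 6.29, 6.12, 6.37 and 6.23 log2 CPM in fresh-frozen and at 7.41, 7.33, 7.52 and 7.67 in fixed libraries. SLC25A24, which is likewise regulated by calcium, stood at 5.18, 5.20, 5.38 and 5.36 in fresh-frozen and at 3.76, 3.69, 3.56 and 4.01 in fixed libraries. The groups did not overlap for either gene, with fixed libraries high for the former and low for the latter. SLC25A23 rose by 1.23 ± 0.09 (SE; limma adjusted p = 1.51e-07) and SLC25A24 fell by 1.53 ± 0.11 (limma adjusted p = 2.57e-07). SLC25A41, the related carrier without calcium-binding motifs, differed by -0.07 ± 0.14 (limma adjusted p = 0.646).

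Of the 3 carriers related to the uncoupling proteins, SLC25A30 had the largest fall among all members. It stood at 6.79, 6.90, 6.66 and 6.63 log2 CPM in fresh-frozen and at 4.87, 4.97, 5.19 and 4.80 in fixed libraries, with no overlap. The fall was 1.79 ± 0.10 (SE; limma adjusted p = 2.23e-08), or 3.45-fold. SLC25A27, a brain carrier also known as UCP4, rose by 0.64 ± 0.11 (limma adjusted p = 0.000237). SLC25A14 rose by 0.38 ± 0.15 (limma adjusted p = 0.0398), from 2.59, 2.72, 3.03 and 3.01 to 3.10, 3.38, 3.20 and 3.17 log2 CPM, and the lowest fixed library lay just above the highest fresh-frozen one. Its call ended with the replicate block (limma adjusted p = 0.0553), under rod scaling (0.17), and when fresh-frozen replicate 1 or 2, or any of PFA-fixed replicates 2 to 4, was left out.

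The largest rises among the carriers were in SLC25A35, SLC25A48 and SLC25A42. SLC25A35, an orphan carrier related to the oxaloacetate carrier of yeast, stood at 2.93, 3.33, 3.47 and 3.46 log2 CPM in fresh-frozen and at 5.48, 5.35, 5.30 and 5.51 in fixed libraries. SLC25A42, a carrier of coenzyme A, stood at 3.61, 3.46, 3.99 and 4.06 in fresh-frozen and at 5.37, 5.39, 5.18 and 5.16 in fixed libraries. SLC25A48, linked to choline transport, stood at 0.72, 0.62, 0.93 and 1.59 in fresh-frozen and at 2.96, 2.83, 2.27 and 2.98 in fixed libraries. Each of these genes was higher in every fixed than in every fresh-frozen library. SLC25A35 rose by 2.11 ± 0.13 (SE; limma adjusted p = 5.79e-08), SLC25A48 by 1.79 ± 0.26 (limma adjusted p = 6.52e-05) and SLC25A42 2.82-fold (limma adjusted p = 1.82e-06, SE 0.14 on the log2 scale). In the gene table used for names, SLC25A35 overlaps RANGRF, a nuclear import factor gene that rose by 0.40 (limma adjusted p = 0.0129). The strand setting of the counting is not given in the sources used here, so reads of overlapping genes may not be told apart. Of the 55 members matched to that table, 16 overlap another protein-coding gene by genomic span, introns included. Overlap of exons was not checked. Some overlapping genes moved with the member, as RANGRF did, and others moved against it. SLC25A26 rose by 0.50, and LRIG1, which it overlaps, fell by 1.10 (limma adjusted p = 8.18e-05). A part of shared reads in these changes was not tested.

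Of 7 measured carriers of carboxylic acids and acylcarnitines, 4 fell and 2 rose, SLC25A35 among the latter. The citrate carrier SLC25A1 fell by 0.56, the dicarboxylate carrier SLC25A10 by 0.66, the oxoglutarate carrier SLC25A11 of the malate-aspartate shuttle by 0.35 and the acylcarnitine carrier SLC25A20 of fat oxidation by 0.74. SLC25A34, the close relative of SLC25A35, rose by 0.82 ± 0.19 (SE; limma adjusted p = 0.00259). The falls of SLC25A10 and SLC25A20 were not called after quantile normalization (-0.32 and -0.39). The oxodicarboxylate carrier SLC25A21, near 1 log2 CPM, differed by -0.38 ± 0.28 and was not called.

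Of 6 measured amino acid carriers (10 listed), 3 rose and 2 fell. SLC25A12 (aralar) and SLC25A13 (citrin) exchange aspartate for glutamate as the other arm of the malate-aspartate shuttle. SLC25A12 stood at 5.66, 5.75, 5.57 and 5.67 log2 CPM in fresh-frozen and at 6.13, 6.24, 6.27 and 6.13 in fixed libraries, with no overlap. SLC25A13 stood at 6.15, 6.34, 6.11 and 6.30 in fresh-frozen and at 6.42, 6.24, 6.23 and 6.30 in fixed libraries, where the groups overlapped. SLC25A12 rose by 0.53 ± 0.07 (SE; limma adjusted p = 3.81e-05), and SLC25A13 differed by 0.07 ± 0.08 (limma adjusted p = 0.453). SLC25A44, a carrier of branched-chain amino acids, rose by 0.53, and the glutamate carrier SLC25A18 rose by 0.79. The ornithine carrier SLC25A15 fell by 0.67 and the glycine carrier SLC25A38, which feeds heme synthesis, by 0.36. SLC25A44 overlaps BGLAP, the osteocalcin gene, which rose by 1.18 (limma adjusted p = 3.65e-06).

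The relatives SLC25A39 and SLC25A40 changed in opposite directions, whereas both mitoferrins had positive values and 1 was called. SLC25A39, which carries glutathione into the matrix, stood at 5.58, 5.47, 5.53 and 5.41 log2 CPM in fresh-frozen and at 4.61, 4.54, 4.72 and 4.41 in fixed libraries. Its relative SLC25A40 stood at 5.14, 4.90, 5.03 and 5.27 in fresh-frozen and at 5.31, 5.46, 5.46 and 5.53 in fixed libraries. Neither gene overlapped between the groups, and fixed libraries were low for SLC25A39 and high for SLC25A40. SLC25A39 fell by 0.93 ± 0.09 (SE; limma adjusted p = 2.36e-06), and SLC25A40 rose by 0.36 ± 0.10 (limma adjusted p = 0.00577), which was not called under rod scaling (0.14). Of the mitoferrins, which import iron, SLC25A37 rose by 0.34 ± 0.13 (limma adjusted p = 0.0342) and SLC25A28 differed by 0.13 ± 0.12 (limma adjusted p = 0.359; called after quantile normalization, 0.33). SLC25A37 was not called with the replicate block, under rod scaling (0.13), or when any of fresh-frozen replicates 1 to 3 or of PFA-fixed replicates 1 and 2 was left out.

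Of 8 measured carriers of nucleotides, cofactors and vitamins (10 listed), 4 rose and none fell, and under rod scaling 1 rose and 1 fell. Beside SLC25A42, the S-adenosylmethionine carrier SLC25A26 rose by 0.50 and the pyrimidine nucleotide carrier SLC25A33 by 0.40. SLC25A33 stood at 5.12, 4.97, 4.72 and 4.76 log2 CPM in fresh-frozen and at 5.03, 5.39, 5.53 and 5.23 in fixed libraries, where PFA-fixed replicate 1 lay within the fresh-frozen range. SLC25A36, the other pyrimidine nucleotide carrier, stood at 5.67, 5.74, 5.79 and 5.72 in fresh-frozen and at 5.43, 5.74, 5.57 and 5.37 in fixed libraries. It differed by -0.20 ± 0.09 (SE; limma adjusted p = 0.0622), with PFA-fixed replicate 2 within the fresh-frozen range, and was called lower without that library and under rod scaling (-0.41). The calls of SLC25A26 and SLC25A33 ended under rod scaling (0.29 and 0.19), and that of SLC25A26 also when fresh-frozen replicate 2, or either of PFA-fixed replicates 1 and 4, was left out. SLC25A16, SLC25A17 (a peroxisomal carrier) and SLC25A32 differed by -0.19, -0.04 and 0.01 and were not called. SLC25A46, a carrier relative of the outer membrane linked to mitochondrial fission, fell by 0.20 (limma adjusted p = 0.0271). That call was lost with the replicate block, after median centring, and when replicate 3 of either group, fresh-frozen replicate 4 or PFA-fixed replicate 2 was left out. SLC25A43 differed by -0.40 and was not called, except under rod scaling (-0.61).

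**Figure D3:**
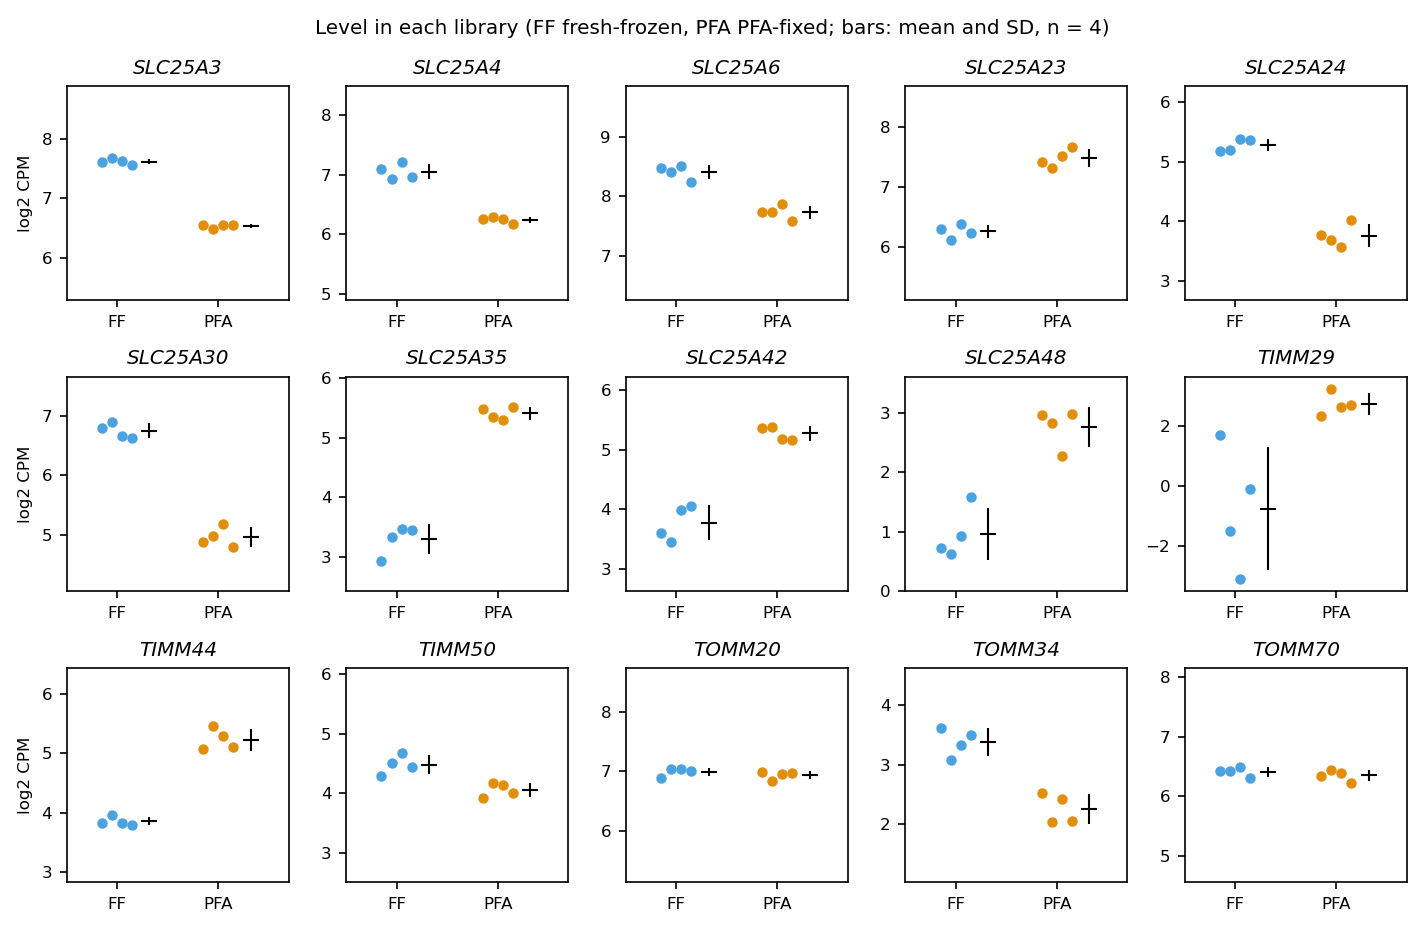
Level of 15 members in log2 CPM in each fresh-frozen (FF) and PFA-fixed (PFA) library, with the mean and SD at the right of each group. Each vertical axis has its own position, and that of TIMM29 also has a wider range. SLC25A3, SLC25A4 and SLC25A6 lie lower in every fixed library, SLC25A35 and TIMM44 higher, and TOMM20 and TOMM70 overlap.

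Of the 8 TOMM genes, 5 were not called, and they are described first. TOMM20 and TOMM70, the receptors for incoming proteins, had the most reads of the TOMM genes. TOMM20 stood at 6.89, 7.03, 7.03 and 7.01 log2 CPM in fresh-frozen and at 7.0, 6.83, 6.95 and 6.97 in fixed libraries. TOMM70, the receptor that carriers use, stood at 6.42, 6.43, 6.49 and 6.30 in fresh-frozen and at 6.35, 6.44, 6.40 and 6.22 in fixed libraries. The groups overlapped for both genes, whose changes were -0.06 ± 0.06 and -0.06 ± 0.07 (SE; limma adjusted p = 0.447 and 0.48). The channel gene TOMM40 and the small subunit gene TOMM6 differed by -0.09 and -0.10 and were not called. Under rod scaling these 4 genes were called lower, by between -0.32 and -0.27. TOMM40L, a relative of the channel, differed by 0.26 ± 0.11 (limma adjusted p = 0.0545). It passed as higher without PFA-fixed replicate 4 (0.33), after quantile normalization (0.39) and after median centring.

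TOMM34, TOMM7 and TOMM22 fell. TOMM34, a cytosolic co-chaperone of precursor proteins, stood at 3.61, 3.07, 3.33 and 3.49 log2 CPM in fresh-frozen and at 2.53, 2.04, 2.43 and 2.05 in fixed libraries. TOMM7, a small subunit of the TOM complex, stood at 5.75, 5.67, 6.10 and 5.44 in fresh-frozen and at 5.20, 5.25, 4.92 and 5.30 in fixed libraries. The central receptor gene TOMM22 stood at 5.13, 5.11, 5.30 and 5.16 in fresh-frozen and at 4.94, 4.72, 4.80 and 4.67 in fixed libraries. For each of them all fixed libraries lay below all fresh-frozen ones, by the narrowest margin for TOMM7, between fresh-frozen replicate 4 and PFA-fixed replicate 4. TOMM34 fell by 1.12 ± 0.18 (SE; limma adjusted p = 0.000151), TOMM7 by 0.58 ± 0.13 (limma adjusted p = 0.00237) and TOMM22 by 0.39 ± 0.09 (limma adjusted p = 0.0021).

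In the presequence pathway, TIMM44, which anchors the import motor to the TIM23 channel, stood at 3.84, 3.96, 3.84 and 3.80 log2 CPM in fresh-frozen and at 5.06, 5.46, 5.29 and 5.10 in fixed libraries. TIMM50, the receptor of the same channel, stood at 4.29, 4.51, 4.68 and 4.45 in fresh-frozen and at 3.93, 4.17, 4.14 and 4.00 in fixed libraries. The groups did not overlap for either gene and lay in opposite order. TIMM44 rose by 1.37 ± 0.11 (SE; limma adjusted p = 3.97e-07) and TIMM50 fell by 0.42 ± 0.11 (limma adjusted p = 0.00514), a call lost after quantile normalization (-0.26). TIMM17A, a channel subunit, stood at 4.64, 4.39, 4.65 and 4.58 in fresh-frozen and at 4.75, 4.70, 4.96 and 4.83 in fixed libraries. TIMM21, which links the channel to the outer membrane and to respiratory chain assembly, stood at 5.35, 5.33, 5.07 and 5.33 in fresh-frozen and at 5.42, 5.45, 5.40 and 5.51 in fixed libraries. Both were higher in every fixed library than in any fresh-frozen one. TIMM17A rose by 0.25 ± 0.10 (limma adjusted p = 0.0389), and TIMM21 differed by 0.18 ± 0.08 (limma adjusted p = 0.0771; called after quantile normalization and after median centring). TIMM17A was not called under rod scaling (0.04), or when fresh-frozen replicate 2 or 4, or any of PFA-fixed replicates 1, 3 and 4, was left out. TIMM23 and TIMM17B, listed with these genes, had no row under those symbols.

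The carrier branch of import was measured through 5 small TIM chaperones and 2 genes of the TIM22 translocase. TIMM10, which forms the main chaperone ring with TIMM9, stood at 3.19, 3.46, 3.67 and 3.38 log2 CPM in fresh-frozen and at 3.91, 4.24, 4.05 and 4.14 in fixed libraries. TIMM9 stood at 2.98, 3.23, 2.99 and 3.42 in fresh-frozen and at 2.74, 2.91, 3.20 and 3.04 in fixed libraries. TIMM10B, which docks the ring at the translocase, stood at 2.28, 2.19, 2.61 and 2.28 in fresh-frozen and at 2.91, 2.91, 2.74 and 3.07 in fixed libraries. Fixed libraries were high without overlap for TIMM10 and TIMM10B, and overlapped with fresh-frozen ones for TIMM9. TIMM10 rose by 0.66 ± 0.13 (SE; limma adjusted p = 0.000838), TIMM10B by 0.57 ± 0.16 (limma adjusted p = 0.0067) and TIMM8B by 0.40 ± 0.13 (limma adjusted p = 0.0125), whereas TIMM9 differed by -0.18 ± 0.16 (limma adjusted p = 0.322). The calls of TIMM10B and TIMM8B ended under rod scaling (0.36 and 0.19). TIMM8A, the gene of deafness-dystonia syndrome, ranged from 1.05 to 3.37 in fresh-frozen and from 0.83 to 2.93 in fixed libraries and differed by -0.47 ± 0.54 (limma adjusted p = 0.451). TIMM8B overlaps the succinate dehydrogenase subunit gene SDHD, which rose by 0.48 (limma adjusted p = 0.00275).

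TIMM29, a stabilizing subunit of the TIM22 translocase, had the largest change of all members and the largest SE. It stood at 1.71, -1.50, -3.12 and -0.10 log2 CPM in fresh-frozen and at 2.35, 3.25, 2.64 and 2.72 in fixed libraries, with fresh-frozen replicate 3 at the lowest value of the table. On the linear scale this was 3.26, 0.353, 0.115 and 0.935 CPM against 5.09, 9.5, 6.21 and 6.57 CPM. All fixed libraries lay above all fresh-frozen ones, which spread more widely. TIMM29 rose by 3.49 ± 0.78 (SE; limma adjusted p = 0.00185), and the rise was 2.70 without fresh-frozen replicate 3, 4.31 without fresh-frozen replicate 1 and 2.03 on the log2(CPM + 1) scale. TIMM22, the channel itself, differed by 0.34 ± 0.15 (limma adjusted p = 0.0528). It passed as higher without PFA-fixed replicate 4, without fresh-frozen replicate 1 or 2, with the replicate block, after quantile normalization (0.48) and after median centring. TIMM29 overlaps YIPF2, a Golgi membrane protein gene, which differed by -0.06 (limma adjusted p = 0.618).

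Related genes were then compared within each library, where a constant scaling factor of the library cancels. Quantile normalization is not such a factor, and the pairs were not tested with it. Of 16 listed pairs, 10 were measured, and their difference in change was tested by exact two-sided permutation over 70 assignments, whose smallest p is 0.0286. In 6 pairs the groups did not overlap and the exact p was 0.0286 (adjusted p = 0.0477 over the 10 pairs). The within-library values are not scaled to transcript length, so only their change between groups is read. SLC25A23 minus SLC25A24 was 0.97 ± 0.11 in fresh-frozen and 3.73 ± 0.16 in fixed libraries (SD, n = 4 each), a difference in change of 2.76 ± 0.10 (SE). SLC25A14 minus SLC25A30 was -3.91 ± 0.33 in fresh-frozen and -1.74 ± 0.18 in fixed libraries, a difference in change of 2.17 ± 0.19. SLC25A39 minus SLC25A40 was 0.41 ± 0.19 and -0.87 ± 0.20, a difference in change of -1.28 ± 0.14. These 3 pairs gave the largest differences, and in each the within-library values of the groups lay more than 1 apart on average.

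The differences in change were 0.60 ± 0.14 (SE) for SLC25A33 against SLC25A36, 0.46 ± 0.08 for SLC25A12 against SLC25A13, and -0.84 ± 0.18 for TIMM9 against TIMM10, the partners in the chaperone ring. For the ADP/ATP carriers SLC25A4 and SLC25A6 the difference was -0.13 ± 0.06 (exact p = 0.114, adjusted p = 0.143), with within-library values of -1.47 to -1.26 in fresh-frozen and -1.60 to -1.41 in fixed libraries, which overlapped. The mitoferrins differed in change by -0.22 ± 0.17 (exact p = 0.286), TIMM8A and TIMM8B by -0.88 ± 0.63 (exact p = 0.229), and TOMM40 and TOMM40L by -0.35 ± 0.14 (exact p = 0.0857). These 4 intervals do not show that the members of a pair acted alike. Because all 6 pairs share the smallest p, the adjusted call needs them together: without any single PFA-fixed library no pair passed. The differences themselves stayed between 2.68 and 2.81 for SLC25A23 and SLC25A24 and between -1.37 and -1.20 for SLC25A39 and SLC25A40 when single libraries were left out.

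**Figure D4:**
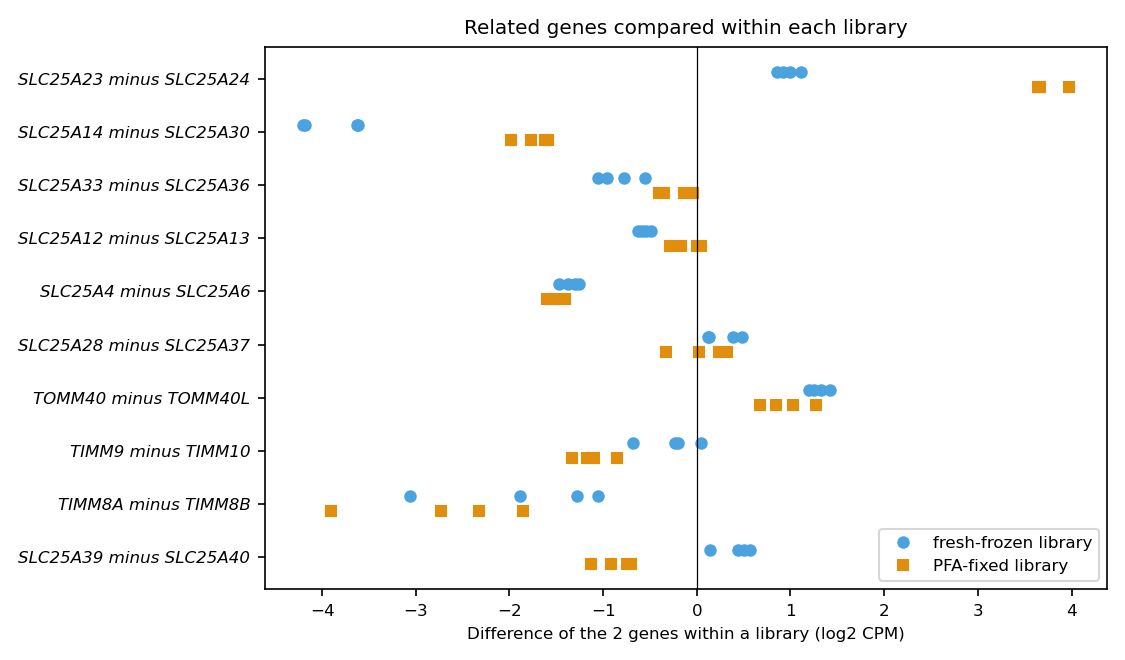
Difference in log2 CPM between 2 related genes within each fresh-frozen (circles) and PFA-fixed (squares) library, for the 10 measured pairs. The groups are apart in 6 pairs, most widely for SLC25A23 minus SLC25A24 (0.97 against 3.73 on average), and overlap for SLC25A4 minus SLC25A6.

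Import and transport genes outside the 3 name families were read from fixed lists. Of 25 measured import partners, 6 rose and 5 fell (44% called), and of 24 other mitochondrial transporters, 7 rose and 6 fell (54.2% called), both shares under the 68.7% of all genes. Their median changes were -0.09 and 0.07. Among import partners, the mitochondrial intermediate peptidase gene MIPEP rose by 1.15. AGK, a lipid kinase that is also a TIM22 subunit, rose by 0.77, and the outer membrane assembly gene MTX3 by 0.74. The matrix chaperonin gene HSPD1 fell by 0.83, the sulfhydryl oxidase gene GFER, which serves the small TIM pathway, by 0.49, and the outer membrane assembly gene SAMM50 by 0.44. Among transporters, MICU2, a gatekeeper of the calcium uniporter, rose by 1.34 and SFXN4 of the sideroflexin family by 0.83. TSPO, an outer membrane protein abundant in microglia, fell by 1.71, the uncoupling protein gene UCP2 by 1.24 and the carrier relative MTCH1 by 0.79. The limma adjusted p of these 11 genes was at most 0.0279. Both directions were thus present in each list, as among the members.

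Members also varied in features that the choice of names did not use. The 37 carriers together held 0.166 ± 0.00351% of the summed CPM in fresh-frozen libraries and 0.134 ± 0.001% in fixed ones, and the 19 import genes held 0.0614 ± 0.00166% and 0.0577 ± 0.000988% (SD, n = 4 each). The lower carrier share lay in SLC25A3, SLC25A4 and SLC25A6, since the other 34 carriers held 0.0963 ± 0.000896% in fresh-frozen and 0.0969 ± 0.00165% in fixed libraries. Carriers occupied a median genomic span of 25.2 kb (36 genes with a span) and import genes 7.97 kb (19 genes), against 28.7 kb for 12495 matched genes. Across genes, which share these libraries, Spearman's rho between span and change was 0.26 for carriers, -0.35 for import genes and 0.03 for all matched genes. The correlation of change with the mean level was -0.26 for carriers, -0.16 for import genes and 0.14 for all genes. Replicates of the same group varied with a median SD of 0.16 among fresh-frozen and 0.14 among fixed libraries for members, and 0.16 and 0.15 for all genes.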

How the data were processed

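Total RNA libraries (SMARTer Stranded Total RNA-Seq v3, per the labels' protocols) were grouped by title. The authors deposited log2 CPM, and the submitters' processing notes name kallisto 0.48.0, edgeR and limma with no role. Reference, strand setting and filter are not stated in the labels. The shared lowest value, -3.12 log2 CPM (0.115 CPM), is about 2.01 reads at the mean depth, so changes of low genes are understated. Effective depth was estimated from the spacing of low values (0.03 to 0.15 CPM searched). At 20 reads or fewer, 62.2% to 68.7% of values came out whole (tolerance 0.1 of a read; 20% by chance), so no count test was run.

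Groups were compared with limma 3.58.1 (R 4.3.3) with an intensity trend over all genes, unfiltered, and the step was checked on simulated data. Members and lists were chosen with earlier results of these data known. Each library's values are given, per name family, for the 4 largest rises and falls without overlap and the 2 genes with the most reads, for the ADP/ATP carriers and for pairs at the smallest p, and the 3 largest called rises and falls are named from each pathway list. Some genes that these rules take are not reported here. Alternatives were single libraries left out, a replicate block, quantile, median and rod list scaling, log2(CPM + 1), a minimum mean of 3 log2 CPM, no trend, and, added after seeing the data, a 1.5-fold minimum change. Symbols matched the gene table of UU_Cfam_GSD_1.0 for 55 of 56 members (not SLC25A20), used for names, overlaps and span only. The red blood cell list had 1 measured gene (ALAS2, not called). CPM is not scaled to transcript length, so levels of different genes are not compared.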

Additional observations from a re-analysis of the deposited data

Results flagged for a closer look

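In 6 of 112 groups of 4 libraries (56 members in each preparation), the highest or lowest library stood apart from the other 3 by Dixon's test at 95%, where chance flags about 1 in 20 groups, or 5.6 here. In fresh-frozen libraries, SLC25A11 was at 5.84 log2 CPM in replicate 4 (5.99 to 6.0 in the others), SLC25A17 at 4.01 in replicate 1 (3.80 to 3.83), TIMM21 at 5.07 in replicate 3 (5.33 to 5.35) and TOMM6 at 4.53 in replicate 4 (4.74 to 4.76). In fixed libraries, SLC25A3 was at 6.49 in replicate 2 (6.55 to 6.56) and SLC25A43 at 1.63 in replicate 4 (2.15 to 2.24). No library held more than 2 of the 6 values.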

How the results depend on the processing

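Of 38 called members, 25 kept their direction and call in each alternative that tested them, the 1.5-fold minimum aside, and 13 lost the call in at least 1. Of 18 members not called, 10 gained a call in at least 1. No called member changed sign. Without single libraries, 12 to 15 carriers were called higher and 12 to 13 lower, 5 to 7 import genes higher and 4 lower, and 8338 to 8649 genes in all. The replicate block called 13 carriers higher and 12 lower, and 7 import genes higher and 4 lower. Same-numbered libraries deviated together with correlations of -0.089 to 0.224, and 4 of 8 libraries correlated best with their own number. So few libraries cannot decide whether the numbers are pairs. The labels do not give pairs, so the number was used only in this alternative. With libraries scaled to the rod list, 9 carriers and 3 import genes were called higher and 8 import genes lower, and the medians were -0.25 for carriers and -0.27 for import genes. After quantile normalization the medians were 0.16 and 0.14. With the deposited scaling these medians were -0.04 and -0.06. The median of all genes moved from -0.02 to -0.23 with the rod list and to 0.07 after quantile normalization. In the latter case the medians of both member groups moved further than that of all genes. Against a minimum change of 1.5-fold, 4 carriers were called higher and 5 lower, 2 import genes higher and 1 lower, and 3343 genes in all. Pairs of related genes past the threshold numbered 6, between 0 and 7 without single libraries, and 0 with the replicate block, where the smallest possible p is 0.125 and the test cannot pass. Of the members, 13 had a mean under 3 log2 CPM and were not tested with that minimum. TIMM29, SLC25A48 and SLC25A21 are low members, and a part of depth in their spread between libraries was not tested.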
